A study of Mus musculus with 6 samples.

Results

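The ubiquitin-specific proteases (USPs) other than Usp18 were followed in mouse leukemia cells in which one copy of Usp18 was targeted for deletion. Members were all rows of the expression table whose gene name is Usp followed by a number, with an optional l, x or y, leaving out Usp18 itself. The rule found 49 genes among 53618 named rows. Of these, 42 were expressed, meaning that they reached 10 normalized counts in at least 3 of the 6 libraries, and 7 did not. Normalized counts are read counts per gene divided by 1 scaling factor per library. RNA was sequenced from Usp18+/f UBCER-Cre AE9a leukemia cells sorted from spleen as GFP+, Lin- and c-Kit+. Both groups carried the same floxed allele, the same Cre and the same oncogene. One group of 3 mice was injected with oil and the other 3 with tamoxifen, and cells were taken 3 days after the first injection. The oncogene AE9a, a shortened form of the AML1-ETO fusion, was delivered to fetal liver cells by a retrovirus that also encodes GFP. The cells were passaged through irradiated recipients, which keep blood cells of their own. Cre was driven by the ubiquitin C promoter and is active only when tamoxifen is bound, so an effect of tamoxifen itself and an effect of the deletion cannot be told apart in these groups. The study's methods give young adult mice of both sexes, and the sex of the mouse behind each library is not given in the sources used here.

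USPs are the largest family of deubiquitinases, cysteine proteases that cut ubiquitin from proteins and so reverse the work of ubiquitin ligases. Different members act on histones, on p53 and its ligase Mdm2, on DNA repair factors, on endosomal and mitochondrial proteins, or on ubiquitin at the proteasome. Usp18 stands apart in the family because it removes the ubiquitin-like protein ISG15, is itself induced by interferon, and restrains signaling at the type I interferon receptor. The question put to the data was whether any other USP moved with it.

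The answer from these 6 libraries is that no other USP passed a test over all genes. By limma on all 6, Usp18 itself did not pass either (adjusted p = 0.666), and 0 of the 12298 genes tested did. That test therefore cannot set the other members apart from Usp18. With limma on all 6 libraries, 1 low-abundance member, Usp44, had the log2 fold change nearest to that of Usp18. By edgeR, by DESeq2 and after a correction for GC content, Usp35 was nearer than Usp44. Usp44 was higher in all 3 libraries labelled tamoxifen, by about the same amount with and without the library that stood apart. Usp36 was also higher in all 3, while Usp28, Usp32, Usp45 and Usp53 were lower in all 3. These 2 and 4 of 42 members are no larger shares than the 7.86% of all genes that were higher and the 9.69% that were lower in all 3. After a correction for GC content Usp45 and Usp53 overlapped. The 5 members highest per exon length, Usp25, Usp1, Usp24, Usp7 and Usp5, overlapped between the groups.

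Usp18 was checked first, as the targeted gene. It lies at chr6:121245906-121270917 on the plus strand of GRCm38 (mm10). Its normalized counts were 217, 214 and 176 in the oil libraries and 477, 329 and 284 in the libraries labelled tamoxifen. The groups did not overlap, and the difference ran opposite to the loss of one copy that the label implies. On the log2 scale Usp18 was higher by 0.81 (SE 0.25, 95% interval 0.22 to 1.40, limma adjusted p = 0.666). Without the library labelled tamoxifen 1 it was 0.60, with an interval of 0.26 to 0.94 and a limma adjusted p of 0.181. The table holds 1 value per library for the gene, so the exons between the loxP sites were not measured apart. Directions below are therefore given for the libraries labelled tamoxifen, as labelled.

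Depth was 19172471 to 23785143 reads per library. The library labelled tamoxifen 1 stood apart, with a median correlation of 0.913 with the others against 0.981 to 0.990 for the remaining 5, and with 0.00923% of reads on mitochondrial genes against 1.01% to 1.56%. Kit, the receptor used in the sort, was present at 4687 to 10976 normalized counts, and Ptprc, a marker of blood cells, was near 0 in every library at 0.898 to 8.08, though whether that row counts the whole gene is not known here. The 10 macrophage markers summed to 109 to 261 in the oil libraries and to 288 to 392 in those labelled tamoxifen. The 6 neutrophil markers summed to 5.39 to 7.72 and to 26.4 to 62.6, with 1 gene at 0 throughout, and 5 T cell markers to 0 and to 0.909 to 4.04, with 2 at 0 throughout. The 5 erythroid markers summed to 43153 to 62844 in oil and 48563 to 72918 in the other group. The part these other cells played in the differences below was not tested, and in bulk RNA fewer cells of a type cannot be told apart from less RNA per cell.

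Promoters are shown for 3 members with an entry, each as 300 bases running from 250 bases before the RefSeq start of the gene to 50 after it (GRCm38.p6). They are Usp49, the single member among those searched with a match to an interferon-stimulated response element, Usp36, higher in all libraries labelled tamoxifen, and Usp28, the member whose levels ran most nearly opposite to those of Usp18. Capitals mark matches to the element.
Usp49, chr17:47630440-47630739, plus strand: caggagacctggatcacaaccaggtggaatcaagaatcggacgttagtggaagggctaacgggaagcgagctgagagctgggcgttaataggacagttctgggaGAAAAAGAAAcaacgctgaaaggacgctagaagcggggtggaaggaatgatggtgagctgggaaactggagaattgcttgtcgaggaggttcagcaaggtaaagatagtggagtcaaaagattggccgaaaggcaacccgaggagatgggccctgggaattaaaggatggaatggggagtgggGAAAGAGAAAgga
Usp36, chr11:118290195-118290494, minus strand: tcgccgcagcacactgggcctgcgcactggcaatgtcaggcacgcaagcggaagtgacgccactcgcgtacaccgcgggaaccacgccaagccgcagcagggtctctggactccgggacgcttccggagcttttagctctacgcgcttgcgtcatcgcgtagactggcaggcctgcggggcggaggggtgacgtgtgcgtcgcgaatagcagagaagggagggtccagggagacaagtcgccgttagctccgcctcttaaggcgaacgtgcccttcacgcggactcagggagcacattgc
Usp28, chr9:48985135-48985434, plus strand: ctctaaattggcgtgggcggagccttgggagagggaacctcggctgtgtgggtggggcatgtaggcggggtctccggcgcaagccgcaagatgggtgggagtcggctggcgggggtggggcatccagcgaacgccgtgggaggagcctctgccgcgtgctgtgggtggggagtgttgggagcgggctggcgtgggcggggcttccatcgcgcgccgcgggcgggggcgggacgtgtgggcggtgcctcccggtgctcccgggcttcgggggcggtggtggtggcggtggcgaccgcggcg

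The response element was searched on both strands as GAAA, any 2 bases and GAAA again, and was found in 3.44% of 32851 RefSeq promoters of this length. Of the 49 members, 38 had a promoter entry, 32 of them expressed, and Usp18 and Usp44 were not among those searched. Of the 38, Usp49 alone held a match, and it held 2 on the plus strand, GAAAAAGAAA at bases -146 to -137 and GAAAGAGAAA at bases 38 to 47 from the start. A second interferon motif, the gamma-activated site (TTC, any 3 bases, GAA), was found in 8.30% of all promoters and in those of Usp27x, Usp50 and Usp26. The Usp27x match, TTCAGTGAA, lay at bases -192 to -184. The promoters of Usp36 and Usp28 printed above held neither set of letters, and their GC contents were 65.0% and 74.7%, against 51.3% for Usp49. These matches are descriptions of sequence in a window, not of binding.

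Usp49 removes ubiquitin from histone H2B. Its levels were 128, 175 and 177 normalized counts in oil and 80.5, 176 and 181 in the libraries labelled tamoxifen. The groups overlapped, with the library labelled tamoxifen 1 lowest. Its log2 fold change was -0.21 with all 6 libraries and 0.17 without that library. Usp49 shares 4392 exon bases on the same strand with Gm20517, so its reads could be split between them. Usp27x, a partner of the SAGA deubiquitinating module, was near the expression limit at 11.7, 13.5 and 11.1 against 8.95, 12.1 and 16.4, with a log2 fold change of 0.01 (95% interval -0.86 to 0.88).

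Levels of the expressed members spanned 3 orders of magnitude. Their mean in oil ran from 9.67 to 10686 normalized counts with a median of 1302. Of the 42, 24 lay over 1000 and 4 under 100, and 36 lay above Usp18. The mean over the 6 libraries had a median of 1452 over members, against 668 over the 12298 genes tested. Divided by exon length, the level in oil was highest for Usp25, at 1269 ± 56.9 normalized counts per kb (SD, n = 3). Usp25 is a close relative of Usp28 that acts in immune signaling. Usp1, which with its cofactor Wdr48 acts on FANCD2 and PCNA, followed at 1104 ± 126. Usp24 stood at 865 ± 80.5, and Usp7, which acts on both Mdm2 and p53, at 813 ± 43.5. Usp5, which recycles free ubiquitin chains, stood at 764 ± 48.6. The oil libraries of Usp25 overlapped those of Usp1, and Usp24, Usp7, Usp5 and Usp39 overlapped each in turn, whereas Usp1 and Usp24 did not overlap. On the same scale Usp18 stood at 72.6 ± 8.16, below 29 of the 42 members. At the foot of the order were Usp44 at 11.2, Usp27x at 2.83 and Usp35 at 1.83 normalized counts per kb.

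**Figure D1:**
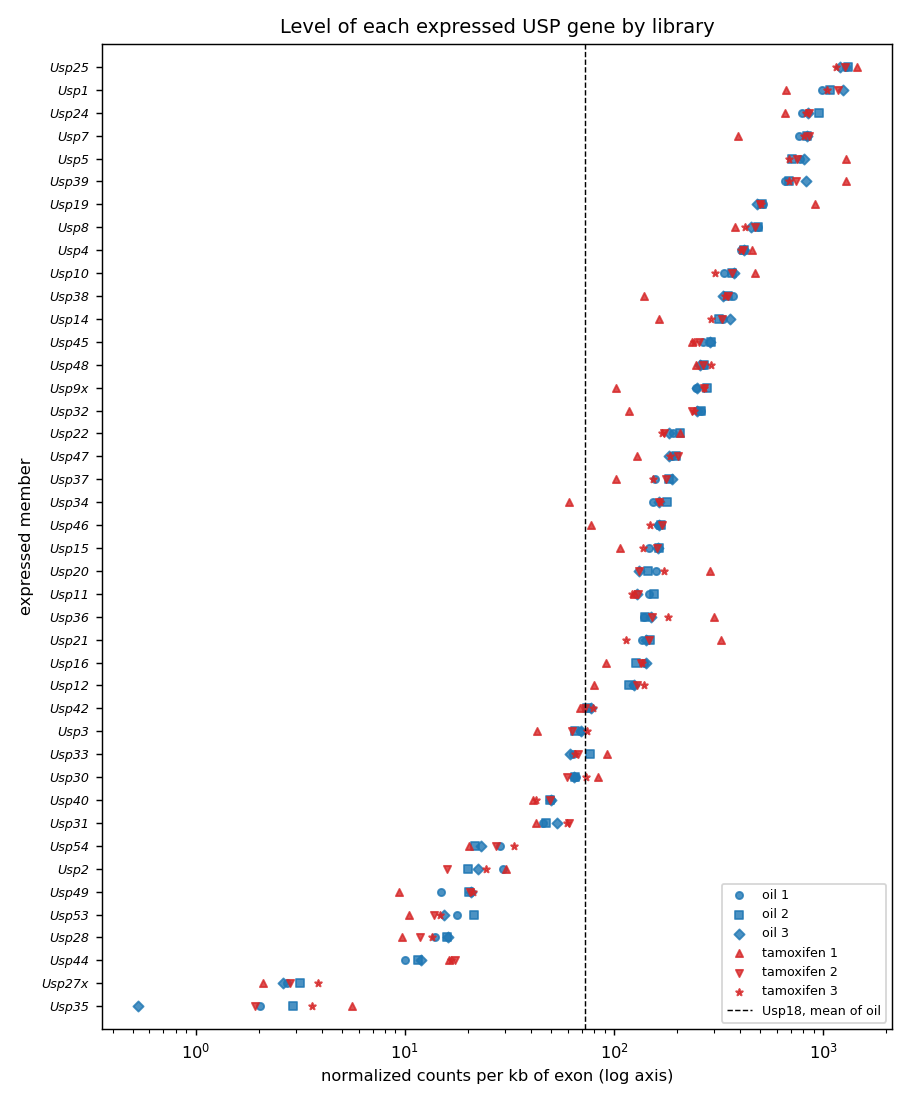
Normalized counts per kb of exon (log axis) for each of the 42 expressed USP genes in each of the 6 libraries, ordered by the oil mean. Blue symbols are oil, red symbols tamoxifen, and the dashed line is the oil mean of Usp18. Most rows form a tight cluster from which the library labelled tamoxifen 1 (red upward triangle) departs to one side or the other.

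Across all members, the comparison of the libraries labelled tamoxifen with oil gave no call. With limma, 0 of 42 members passed an adjusted p of 0.05, where 0% of the 12298 genes tested passed. At an unadjusted p under 0.05, 1 member was higher, Usp44, against 3.23% of all genes, and 0 were lower, against 1.24%. By edgeR the adjusted count was 0 and the unadjusted count 1, against 4.81% of genes in either direction. DESeq2 gave 0 on both counts, against 0.464% and 3.65% of genes. The smallest adjusted limma p of any member was 0.666. Log2 fold changes ran from -0.49 to 1.07 with a median of -0.13, against a median of -0.017 over all genes tested. The 95% intervals, which are not adjusted for the number of genes, had a median half-width of 0.57. Of the 42, 25 lay within 1.2-fold of no difference, as did 46.5% of all genes.

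Leaving out the library labelled tamoxifen 1 narrowed the intervals to a median half-width of 0.22. Still 0 members passed the adjusted threshold, against 0.333% of all genes. At an unadjusted p under 0.05 limma then gave 2 higher, Usp31 and Usp44, against 6.04% of genes, and 1 lower, Usp45, against 6.06%. The median member stood at -0.018, and 36 of the 42 lay within 1.2-fold, as did 76.9% of all genes.

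**Figure D2:**
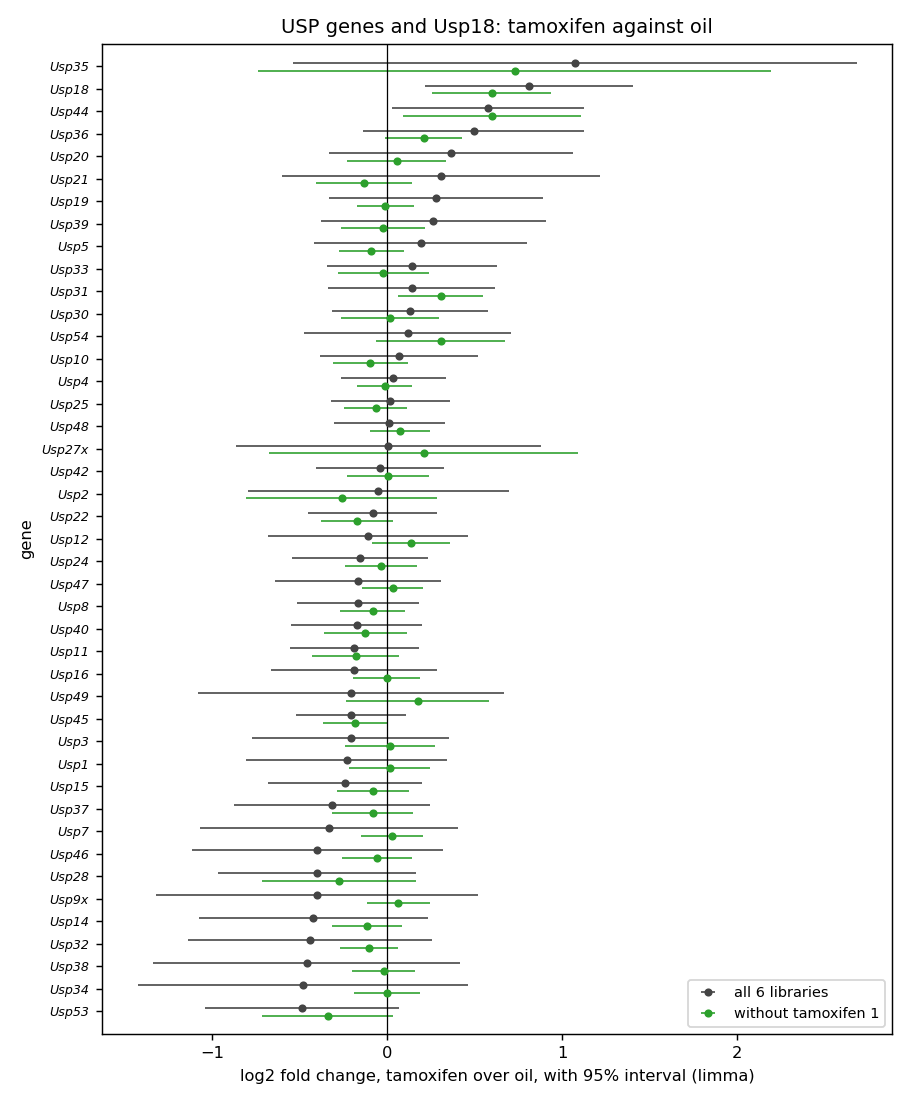
Log2 fold change of each expressed USP gene and of Usp18, libraries labelled tamoxifen over oil, with 95% limma intervals. Black points use all 6 libraries and green points leave out the library labelled tamoxifen 1. With all 6, the interval excludes 0 for Usp18 and Usp44, and the green intervals are shorter and nearer 0 for most genes.

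Set beside Usp18, members were counted by their log2 fold change. Of the 42, 41 had a lower log2 fold change than the 0.81 of Usp18, the exception being Usp35, and for 34 the whole 95% interval lay below that value. Of all other genes tested, 96.1% had a lower log2 fold change and 64.6% an interval wholly below it. Without the library labelled tamoxifen 1, 40 were lower and 38 had intervals wholly below the 0.60 of Usp18, against 94.8% and 79.4% of all genes. These counts take the value of Usp18 as exact. Its own interval was 0.22 to 1.40 with all 6 libraries and 0.26 to 0.94 without that library. The ratio of a member to Usp18 within a library was lower in all 3 libraries labelled tamoxifen for 36 members, overlapped for 6 and was higher for 0. For all genes the shares lower and higher were 73.7% and 0.398%, since Usp18 itself separated the groups. An exact permutation test of 3 against 3 cannot go below p = 0.1, so none of these ratios could pass on its own.

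By log2 fold change with limma on all 6 libraries, Usp44 was the member nearest to Usp18, with Usp35 close behind. The order changed with the setting. Usp35 was nearer by edgeR, at 1.01 against 0.85 for Usp18 and 0.60 for Usp44. By DESeq2 the values in that order were 1.01, 0.84 and 0.58, and with GC correction 0.76, 0.77 and 0.65. Usp35 was also nearer with a pseudocount of 5 and without the library labelled tamoxifen 3. Without the library labelled tamoxifen 2, Usp36 was nearer than Usp44. Usp44 removes ubiquitin from histone H2B and acts in the mitotic checkpoint, and it lies at chr10:93831555-93858088 on the plus strand. Its normalized counts were 40.4, 46.3 and 48.3 in oil and 65.2, 69.7 and 67.3 in the libraries labelled tamoxifen. The groups did not overlap, each was tight, and the library labelled tamoxifen 1 sat with its group. Group means stood at 45.0 ± 4.09 and 67.4 ± 2.27 (SD, n = 3). This is a log2 fold change of 0.58 (SE 0.23, 95% interval 0.026 to 1.12, limma unadjusted p = 0.0425, adjusted p = 0.666). Without the library labelled tamoxifen 1 it was 0.60, the same as Usp18 in that fit. The difference between the changes of Usp44 and Usp18 was -0.23 on the log2 scale, a difference for which an exact test of 3 libraries against 3 could not pass 0.05. These values rest on 45 to 74 reads per library, and the difference did not pass adjustment in any setting tried. Its unadjusted limma p was 0.0842 to 0.137 when any 1 library other than the library labelled tamoxifen 1 was left out, and 0.127 with a replicate block. It was 0.0576 by DESeq2 and 0.0401 by edgeR. The log2 fold change stayed between 0.50 and 0.65 in all of the settings tried.

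Usp36, a nucleolar enzyme that acts in ribosome formation, was the other member higher without overlap. It lies at chr11:118259651-118290244 on the minus strand, and its promoter is printed above. Its levels were 1070, 1086 and 1150 in oil and 2306, 1168 and 1385 in the libraries labelled tamoxifen. The lowest of the latter exceeded the highest oil library by a narrow margin, and most of the mean difference came from the library labelled tamoxifen 1. The log2 fold change was 0.49 (95% interval -0.14 to 1.12) and became 0.21 (interval -0.01 to 0.42) without that library. Usp39, a splicing factor of the family that lacks protease activity, was 1610, 1685 and 2030 against 3157, 1803 and 1672, and overlapped.

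In the other members with large positive values the groups overlapped. Usp35 had the largest log2 fold change, 1.07, on levels of 10.8, 15.4 and 2.79 in oil and 29.4, 10.1 and 19.1 in the libraries labelled tamoxifen. These correspond to 3 to 23 reads, the groups overlapped, and the interval ran from -0.54 to 2.68. Without oil 3, which held 3 reads, the value was 0.44, below that of Usp44 in the same fit (0.63). Usp20, which acts with Usp33 on receptors and on the von Hippel-Lindau pathway, was at 1430, 1314 and 1190 against 2580, 1185 and 1555, a log2 fold change of 0.36. Usp21, a histone H2A deubiquitinase, was at 645, 704 and 677 against 1543, 699 and 541, a log2 fold change of 0.31. Usp19, which is anchored in the endoplasmic reticulum, was at 3635, 3601 and 3407 against 6413, 3510 and 3533, a log2 fold change of 0.28. In Usp19, Usp20 and Usp21 the library labelled tamoxifen 1 was the highest of the 6, and without it the values were -0.01, 0.05 and -0.13.

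In all, 4 of 42 members were lower without overlap, a share close to the 9.69% of all genes, and 2 of 42 were higher, against 7.86% of all genes. Without the library labelled tamoxifen 1 the counts were 5 and 4, against 16.8% and 12.6%. Usp28, which binds the repair protein 53BP1 and stabilizes MYC, was at 80.8, 92.6 and 93.8 in oil and 56.2, 68.7 and 78.2 in the libraries labelled tamoxifen. The highest of the latter stayed just under the lowest oil library. Its log2 fold change was -0.40 (95% interval -0.97 to 0.17) and -0.27 without the library labelled tamoxifen 1. Usp45, which acts on the nucleotide excision repair protein ERCC1, was at 1651, 1801 and 1794 against 1462, 1581 and 1496. Its log2 fold change was -0.21 in all libraries and -0.18 without the library labelled tamoxifen 1 (limma, unadjusted p = 0.0487). Usp53, a protein of tight junctions, was at 223, 268 and 194 against 132, 173 and 185, with a log2 fold change of -0.49 (interval -1.04 to 0.07). Usp32, found on Golgi and endosome membranes, was at 1992, 1992 and 1913 against 905, 1805 and 1849. Its log2 fold change of -0.44 became -0.11 without the library labelled tamoxifen 1. Under another scaling of the libraries (TMM) the groups of Usp32 overlapped. After a correction for GC content, Usp28 and Usp32 were still lower without overlap, while Usp45 and Usp53 overlapped at log2 fold changes of 0.34 and 0.0018.

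**Figure D3:**
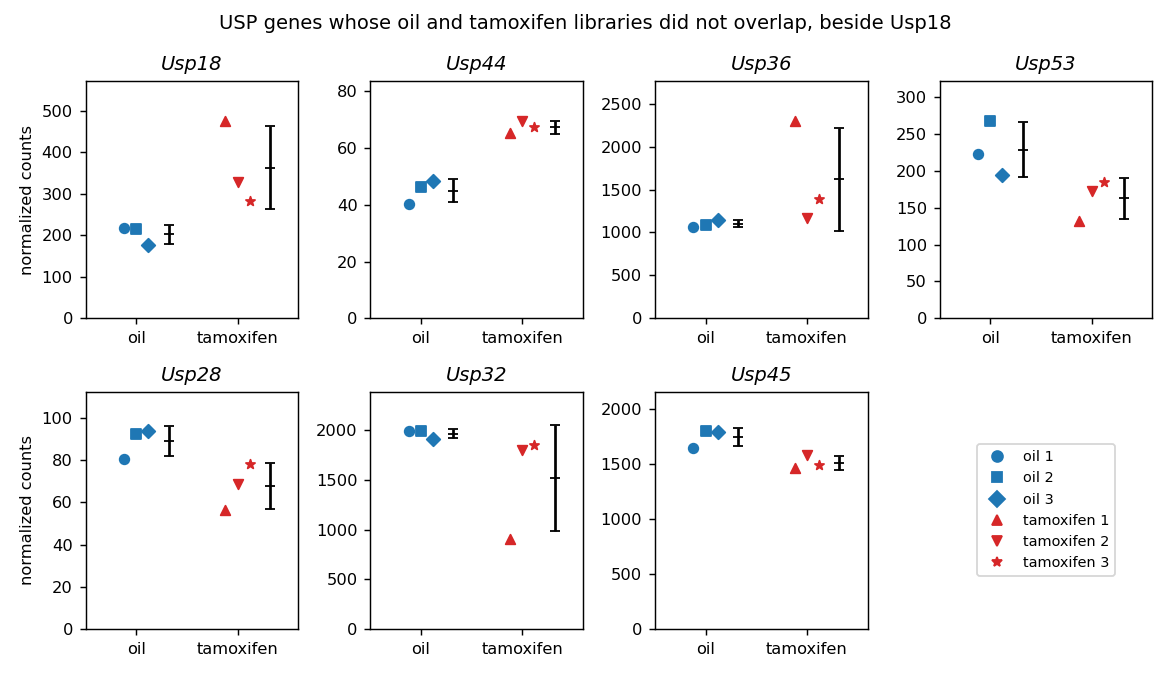
Normalized counts in each library for Usp18 and for the 6 members whose groups did not overlap, with the mean and SD of each group of 3 as bars. Usp44 and Usp36 lie higher and Usp53, Usp28, Usp32 and Usp45 lower in the libraries labelled tamoxifen, and the library labelled tamoxifen 1 (upward triangle) sets most of the gap in Usp36 and Usp32.

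Likeness to Usp18 was measured as Pearson's r of log2(normalized count + 1) over the 6 libraries for all 42 members. Because Usp18 separated the groups, r partly repeats the group difference, and 3 libraries are too few for r within a group. The highest values were 0.84 for Usp36, 0.79 for Usp19, 0.77 for Usp20, and 0.76 for both Usp44 and Usp35. Spearman's rho for these 5, in the same order, was 0.71, 0.49, 0.43, 0.60 and 0.60. None passed adjustment over the 42 members (exact permutation tests, adjusted p = 0.184 for each r and 0.597 to 0.766 for rho). When the 2 libraries farthest from the median of Usp18 were left out, tamoxifen 1 and oil 3, r became 0.60 for Usp36, -0.96 for Usp19, -0.31 for Usp20, 0.94 for Usp44 and -0.12 for Usp35. Without the library labelled tamoxifen 1 alone, r was 0.49, 0.17, 0.15, 0.83 and 0.59 in that order. These are values over 4 and 5 libraries, and r moved widely with the libraries used. Over the 4, Usp31 reached 0.97, above Usp44. At the other end Usp28 had an r of -0.97 and a rho of -1, its order over the 6 libraries being the exact reverse of that of Usp18. Its exact permutation p was 0.00139 for r and 0.00278 for rho, and 0.0583 and 0.117 after adjustment over the 42 members. Leaving out the same 2 libraries gave -0.88, when Usp32 at -0.99, Usp19 at -0.96 and Usp53 at -0.92 lay lower. Usp28 was picked out after its values were seen.

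By role, the 9 members tied to p53 and DNA repair had a median log2 fold change of -0.19 (range -0.40 to 0.07), and of -0.037 (range -0.27 to 0.03) without the library labelled tamoxifen 1, with 0 of 9 called and 2, Usp28 and Usp45, lower without overlap. Against this and the counts by role and list that follow, 0% of all genes were called, 9.69% were lower without overlap and 7.86% higher. Usp7 was at 5924, 6527 and 6490 in oil and 3039, 6601 and 6268 in the libraries labelled tamoxifen. Of these 6 libraries, 5 lay together and the library labelled tamoxifen 1 was far below them. Its log2 fold change was -0.33 with all libraries and 0.03 without that one, when the interval was -0.15 to 0.20. Usp1 was at 3694, 4040 and 4625 against 2485, 4384 and 3909, and Usp24 at 9823, 11773 and 10461 against 8131, 10605 and 10172. Both overlapped. Usp4, Usp10, Usp11 and Usp47 also overlapped, with log2 fold changes of 0.04, 0.07, -0.19 and -0.17, and of -0.014, -0.096, -0.18 and 0.031 without the library labelled tamoxifen 1. A short list covered the p53 axis itself. Cdkn1a, the p53-induced cell cycle inhibitor, was at 603, 487 and 614 in oil and 2796, 1754 and 1898 in the libraries labelled tamoxifen, a log2 fold change of 1.90 (limma, adjusted p = 0.266). Mdm2 was also higher without overlap, at 0.39, as was Trp53 at 0.12. Of these 3 genes, 0 were called with limma on 6 libraries and 2 were higher at an unadjusted p under 0.05, against 3.23% of all genes. By DESeq2 1 of 3 passed adjustment, against 0.464%, and by limma without the library labelled tamoxifen 1 also 1, against 0.333%.

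The 8 expressed chromatin members had a median of -0.06, and of 0.010 without the library labelled tamoxifen 1, with 0 called and Usp44 alone higher without overlap. Usp22, the catalytic subunit of the SAGA module for histone H2B, was at 931, 1012 and 897 against 1007, 851 and 830. It overlapped with all 6 libraries and was lower without overlap when the library labelled tamoxifen 1 was left out, at -0.17. Usp3 and Usp16, both histone H2A deubiquitinases, stood at -0.21 and -0.19, and at 0.01 and -0.0025 without that library. Usp42 was nearly level, from 429 to 492 in all 6 libraries.

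Usp5 and Usp14 act on ubiquitin itself or at the proteasome, and both overlapped. Usp5 was at 3570, 3289 and 3733 in oil and 5949, 3461 and 3171 in the libraries labelled tamoxifen. Usp14, a proteasome-bound enzyme that trims ubiquitin chains, was at 2755, 2641 and 3003 against 1364, 2738 and 2434. In these 2 genes the library labelled tamoxifen 1 went opposite ways, highest in Usp5 and lowest in Usp14. Their log2 fold changes of 0.19 and -0.42 became -0.09 and -0.11 without it. Usp14 shares 2169 exon bases with Thoc1 on the opposite strand, and whether reads were counted by strand is not stated.

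The 7 members of membrane traffic and organelles had a median of 0.13, and of -0.010 without the library labelled tamoxifen 1, with 0 called and Usp32 lower without overlap. Usp9x, an X-linked enzyme with many substrates, was at 3688, 4182 and 3758 against 1535, 4032 and 4061, and its log2 fold change of -0.40 became 0.06 without the library labelled tamoxifen 1. Usp30, which opposes the clearance of mitochondria, stood at 0.13, Usp33 at 0.14 and Usp8, which acts on endosomal sorting, at -0.17. Without that library these were 0.015, -0.022 and -0.084. The partners of Wdr48, Usp12 and Usp46, are close copies of each other and stood at -0.11 and -0.40. Leaving it out put them at 0.14 and -0.06.

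The 8 signaling and cell cycle members had a median of -0.15, and of -0.044 without the library labelled tamoxifen 1, with 0 called and 0 without overlap in all 6 libraries. Usp25 was at 6674, 6850 and 6272 in oil and 7498, 6595 and 6011 in the libraries labelled tamoxifen, and its log2 fold change was 0.02 with an interval of -0.32 to 0.36. Usp34, which acts on axin in the Wnt pathway, was at 2834, 3301 and 3031 against 1125, 3020 and 3067. Usp38 was at 2128, 2018 and 1906 against 796, 2019 and 1954. In both, 5 libraries lay together and the library labelled tamoxifen 1 was below them. Their log2 fold changes of -0.48 and -0.46 became -0.0028 and -0.021 when it was left out. Usp34 shares 2137 exon bases with Ahsa2 and Usp38 shares 1174 with Gm9725, both on opposite strands. Usp31 was at 470, 486 and 548 against 438, 625 and 611. It overlapped with all 6 libraries at 0.14 and was higher without overlap at 0.31 without the library labelled tamoxifen 1 (95% interval 0.06 to 0.55, limma adjusted p = 0.30). Usp2, Usp15, Usp37 and Usp48 stood at -0.05, -0.24, -0.31 and 0.01, and at -0.26, -0.082, -0.081 and 0.070 without that library. Of the members without an assigned role, Usp40 stood at -0.17 and Usp54 at 0.12, and at -0.12 and 0.31 without it.

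**Figure D4:**
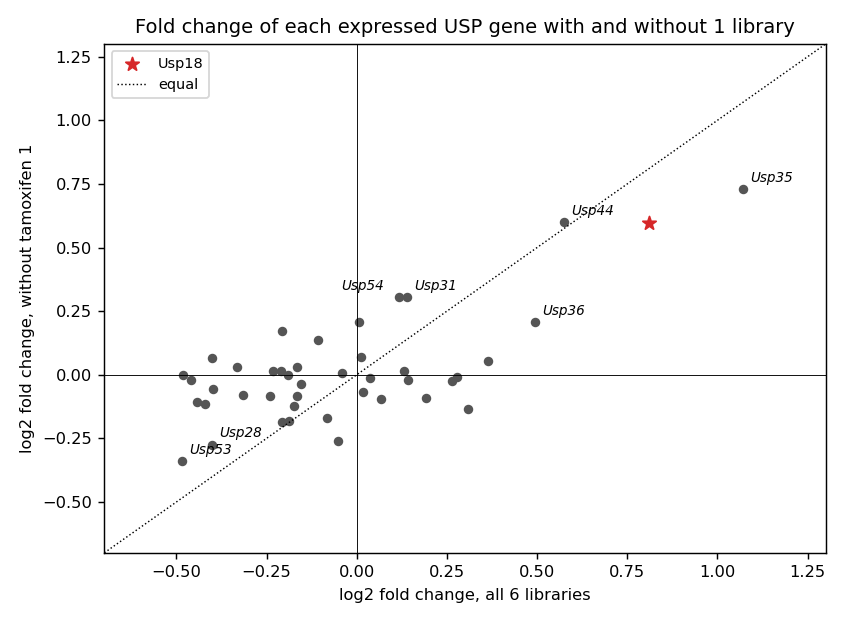
Log2 fold change of each expressed USP gene and of Usp18 (star) with all 6 libraries on the x axis and without the library labelled tamoxifen 1 on the y axis, with a dotted line of equality. Usp44 lies on the line at 0.58 and 0.60, whereas most other members shrink toward 0 on the y axis.

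The position of the library labelled tamoxifen 1 followed base composition. It was the lowest of the 6 for 26 members, the highest for 13 and within the others for 3, so it was an extreme for 39 of 42, and for 82.7% of all genes tested. Each of the other libraries was an extreme for 7 to 14 members. All 8 members with a GC content of 54% or more (Usp5, Usp10, Usp19, Usp20, Usp21, Usp30, Usp35 and Usp36) were above the other 5 libraries in it, by 0.35 to 1.46 on the log2 scale. All 6 members under 42% GC (Usp9x, Usp14, Usp16, Usp34, Usp45 and Usp53) were below them, at -1.44 to -0.18. Between these limits members lay on either side. Usp33, at 43.0% GC, was above the others by 0.48, and Usp37, at 43.1%, was at -0.75. Over the 42 members, the deviation of this library and GC content had a Pearson's r of 0.77 and a Spearman's rho of 0.72, given as a description across genes, which share the library and are not independent. Deviations are from the mean of the other 5 libraries, 3 of them oil, and so also hold the difference between the groups. Usp18, with a GC content of 50.9%, deviated by 0.998. Usp44, at 47.9%, deviated by 0.29, although its 65.2 in this library was the lowest of its group, beside 69.7 and 67.3. The part of this library in the differences was not tested beyond the fits that left it out or corrected for GC content.

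**Figure D5:**
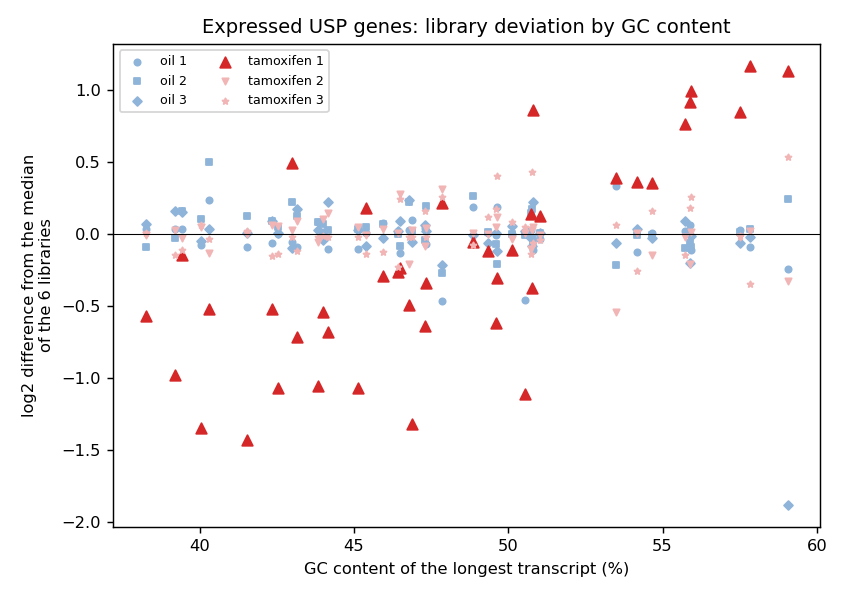
Log2 difference of each library from the median of the 6 libraries, for each expressed USP gene, against the GC content of its longest transcript in percent. The library labelled tamoxifen 1 (large red triangles) runs from below 0 at low GC to above 0 at high GC, while the other 5 libraries stay near 0 except for Usp35 in oil 3.

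Over the remaining 5 libraries, the median ratio of the highest to the lowest library was 1.21 for the members and 1.28 for all genes tested. Of the 42 members, 20 lay within 1.2-fold, as did 33.6% of all genes, and 37 lay within 1.5-fold. The sum over the members was 79939, 84826 and 82948 normalized counts in oil and 74551, 82872 and 79289 in the libraries labelled tamoxifen, which overlap.

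The remaining 7 members stayed below the expression limit. Usp26, Usp29 and Usp9y were listed at 0 in every library, where 3 reads, the limit that a count of 0 allows, equal 2.69 to 3.83 normalized counts. Usp13 reached 2.56, Usp43 3.03 and Usp50 2.73 at most, each on 3 reads or fewer per library, so no order was read from them. Usp43 had 0 reads in every oil library and 1, 3 and 2 in those labelled tamoxifen. Usp51, a histone H2A enzyme, was at 10.8, 14.5 and 9.29 in oil and 0, 6.06 and 7.28 in the libraries labelled tamoxifen. These groups did not overlap, on 10 to 15 reads against 0 to 8, and the gene was left out of the limma test because it missed the limit. Usp51, Usp27x and Usp22 are related copies, and Usp9y is a copy of Usp9x.

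Genes around the family were taken as lists. Of 36 related genes outside the name rule, most of them deubiquitinases of other families, 33 were tested and 0 were called with limma. With all 6 libraries none had an unadjusted limma p under 0.05, where 3.23% of all genes were higher and 1.24% lower. DESeq2 also called 0 on both counts, against 0.464% of all genes at adjusted and 3.65% at unadjusted p. Pan2, a deadenylase subunit with a USP-like domain, and Stambp, an endosomal deubiquitinase, 2 of the 33, were lower without overlap, against 9.69% of all genes. The median log2 fold change was -0.28 with all libraries and -0.016 without the library labelled tamoxifen 1. Without that library 5 of the 33 were lower and 1 higher without overlap, where 16.8% and 12.6% of all genes were. In that fit 2 were lower and 1 higher at an unadjusted limma p under 0.05, against 6.06% and 6.04%. Among 7 cofactors of USPs, 0 were called by limma or DESeq2 on all 6 libraries, at adjusted or unadjusted p. At unadjusted p, 3.23% of all genes were higher and 1.24% lower by limma, and 3.65% passed by DESeq2. At adjusted p, 0% passed by limma and 0.464% by DESeq2. Wdr48, the activator of Usp1, Usp12 and Usp46, was at 1039, 1064 and 1021 in oil and 901, 1007 and 895 in the libraries labelled tamoxifen, lower without overlap, and Wdr20 was at 863, 895 and 857 against 436, 774 and 769, so that 2 of 7 were lower without overlap. The log2 fold change of Wdr20 was -0.45, with the library labelled tamoxifen 1 lowest. Without that library it was no lower than -0.18. Eny2, a SAGA subunit, had the lowest of the 7, -1.37, on 1055, 975 and 1070 against 75.4, 988 and 841, which overlapped, and without the library labelled tamoxifen 1 the lowest of any cofactor was -0.18. Among 9 genes of the ISG15 pathway and of Usp18's partners the picture was different. Isg15, the substrate of Usp18, was at 214, 219 and 231 in oil and 1152, 656 and 495 in the libraries labelled tamoxifen, a log2 fold change of 1.70 (limma, adjusted p = 0.580). Irf9, of the interferon-activated transcription complex, stood at 0.35, and Ube2l6, the E2 enzyme for ISG15, at 0.47. Ube2l6 was at 1646, 1809 and 1507 in oil and 3279, 1944 and 1866 in the libraries labelled tamoxifen, with tamoxifen 1 far above the others. These 3 of 9 were higher without overlap, where 7.86% of all genes were. By limma 0 of the 9 passed adjustment and 2 were higher at an unadjusted p under 0.05, against 3.23% of all genes, and 1 passed adjustment by DESeq2 and by limma without the library labelled tamoxifen 1, where 0.464% and 0.333% of all genes did. Without the library labelled tamoxifen 1, 5 of the 9 were higher without overlap, where 12.6% of all genes were. In that fit 4 were higher at an unadjusted limma p under 0.05, against 6.04%. The median of the 9 was 0.32, against -0.13 for the 42 USP members, and 0.21 against -0.018 without that library.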

How the data were processed

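RNA-seq libraries were made by the authors from sorted leukemia cells of 6 mice, 3 per group, with groups and replicate numbers taken from the labels. The submitters' processing notes name STAR, DESeq2 and mm10; annotation, strand setting and versions are not given in the sources used here. The authors deposited a table called counts whose values are a normalized signal, read counts divided by 1 factor per library: in each library 100% of values were whole multiples of 1 step (tolerance 0.01 reads), and reads were recovered by dividing by it. Depth was 19172471 to 23785143 reads, and floors cover counting error only. Of 55450 rows, 1832 had no gene name (0.0400% to 0.0614% of reads) and stayed out. No column was left unused, and the table held no comparisons of the authors.

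Genes with a value of at least 10 in 3 libraries (12298) were tested on log2(value + 1) with limma 3.58.1 in R 4.3.3 (trended empirical Bayes, two-sided, Benjamini-Hochberg over all of them), so that a fold change understates that of low genes. Alternatives were edgeR 4.0.16 and DESeq2 1.42.0 on recovered reads, no filter, pseudocounts of 0.5 and 5, TMM scaling, library weights, a replicate block and leaving out each library. GC correction, edgeR and DESeq2 without the library labelled tamoxifen 1, and GC correction with the block, were added after seeing the data. On simulated data for this comparison limma recovered 98% of genes changed by a log2 value of 2 and called 7 unchanged genes, among 12298. The simulated counts had the same spread setting for all genes and held no library that stood apart. The figures therefore do not measure what could be detected in the real libraries. Coordinates, exon length and GC content came from GENCODE vM21 (GRCm38) by symbol, which matched all 49 members, and promoters from RefSeq (GRCm38.p6). The members and lists were chosen with earlier results of these data known. Values per library are given for members whose groups did not overlap, the 6 largest log2 fold changes each way, the 5 highest per exon length and the 5 most like Usp18; a few others were picked after their values were seen.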

Additional observations from a re-analysis of the deposited data

How the results depend on the processing

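No USP member passed an adjusted p of 0.05 in any setting tried, and the smallest adjusted p was 0.0812, for Usp36 with library weights in limma, a setting in which 6.36% of all genes passed. The count of members higher at an unadjusted p under 0.05 (1) was 0 by DESeq2, 0 without a filter, 4 with library weights (10.99% of all genes), 3 by edgeR without the library labelled tamoxifen 1 (7.37%), and 0 to 2 when single libraries were left out, where leaving out any oil library or the library labelled tamoxifen 3 gave 0, leaving out tamoxifen 2 gave 1, Usp36 in place of Usp44, and leaving out tamoxifen 1 gave 2. The count lower (0) was 4 with library weights (12.4% of all genes) and 0 to 1 with single libraries left out, the 1 being without tamoxifen 1. Members higher without overlap (2) numbered 4 by edgeR and by DESeq2 without tamoxifen 1, and 2 to 5 with single libraries left out (4 without tamoxifen 1 and 5 without tamoxifen 2, where 12.6% and 15.8% of all genes were). Members lower without overlap (4) numbered 3 with TMM scaling (8.48% of all genes), where Usp32 overlapped. They numbered 2 with GC correction, alone or with the block (10.7% of all genes), and 5 to 11 with single libraries left out (7 without oil 2 and 11 without tamoxifen 2, where 13.1% and 21.2% of all genes were). Library weights gave the library labelled tamoxifen 1 a weight of 0.0377 and Usp18 a log2 fold change of 0.52 that passed adjustment (limma, adjusted p = 0.0348). Replicate numbers did not pair the libraries, with same-number correlations of -0.024, 0.061 and -0.15; with the replicate block 0 members were higher at an unadjusted p under 0.05, also with GC correction and block together, and 0 passed adjustment.

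Among members given library by library under the naming rule, the log2 fold changes that changed sign were as follows, and the cause was not tested. Without the library labelled tamoxifen 1 they were, by limma, edgeR and DESeq2 in turn, -0.13, -0.10 and -0.11 for Usp21, 0.064, 0.086 and 0.076 for Usp9x, -0.067, -0.044 and -0.054 for Usp25, 0.013, 0.032 and 0.022 for Usp1, 0.028, 0.051 and 0.041 for Usp7, and -0.090, -0.068 and -0.078 for Usp5. Usp19 was -0.010 by limma, Usp34 0.018 by edgeR and 0.0081 by DESeq2, and Usp38 0.00056 by edgeR. With library weights Usp19 was -0.0053, Usp21 -0.24, Usp9x 0.032, Usp25 -0.11 and Usp5 -0.096, and Usp25 was -0.019 without oil 3. With single libraries left out in turn, values ran from -0.010 to 0.42 for Usp19, -0.13 to 0.62 for Usp21, -0.64 to 0.064 for Usp9x, -0.067 to 0.093 for Usp25, -0.40 to 0.013 for Usp1, -0.53 to 0.028 for Usp7 and -0.090 to 0.36 for Usp5. With GC correction, with or without the block, Usp53 was 0.0018, Usp45 0.34, Usp14 0.14, Usp9x 0.11, Usp1 0.039 and Usp5 -0.019. Of the 42 members, 16 had another sign without tamoxifen 1, 15 with GC correction and 14 with library weights, and 0 with TMM scaling, either pseudocount, no filter, the block, or edgeR or DESeq2 on all 6 libraries.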
